A study of Danio rerio with 6 samples.

Results

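A module of 141 genes was defined by its counts in pre-vitellogenic ovarian follicles of zebrafish labelled as homozygous for a ybx1 mutation. A gene belonged to it when it had at least 1 count in total over the wild-type libraries and a mean of at least 1 CPM (counts per 1000000 counts of the library) in the ybx1 mutants. Its mean mutant CPM also had to be at least 8 times the wild-type mean, with every mutant library above every wild-type library. CPM is not corrected for gene length, so an order of genes by CPM is not an order of transcript numbers. The 141 genes were taken from 32057 listed genes and are 0.811% of the 17385 tested. A total of 329 genes met the same rule with a limit of 4-fold in place of 8-fold. Since the values that defined the module are the genotype difference itself, that difference is described below and not tested.

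Ybx1 is a cold-shock-domain protein that binds RNA and DNA. It packages stored messenger RNA in oocytes and acts on its stability and translation. In the pre-vitellogenic stage, the oocyte grows inside a layer of granulosa and theca cells before it takes up vitellogenin, the yolk precursor made by the liver. A follicle sample therefore holds oocyte RNA together with RNA of the surrounding somatic cells. In such bulk samples, more cells of a type and more RNA per cell cannot be told apart.

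All fish were of the AB strain. There were 3 libraries of wild-type follicles (ybx1+/+) and 3 of follicles homozygous for the ybx1 mutation (ybx1-/-), all at the pre-vitellogenic stage. The labels give neither the allele, nor the age, nor the number of fish per library. Where nothing says that libraries came from separate fish, p-values measure only the spread between these libraries. Total counts ran from 16600019 to 37764782 per library.

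The ybx1 transcript itself was still counted in the mutant, at 252, 241 and 229.7 CPM against 276, 264 and 298 CPM in wild type. The groups did not overlap, and the log2 fold change was -0.21, standard error 0.06 (edgeR quasi-likelihood test, adjusted p = 0.0244). Leaving out wild-type replicate 1 or 3, or mutant replicate 2 or 3, gave adjusted p-values of 0.053, 0.0995, 0.0706 and 0.084. A transcript count of a gene whose allele is not given is no check of the genotype labels. Defining oocyte transcripts were high in every library: zar1, a maternal-effect gene of the egg, had 494 to 561 CPM, and buc, which organises the Balbiani body, had 961 to 1020 CPM. The vitellogenin transcript vtg1 varied widely within each genotype, with 316, 514 and 9.72 CPM in wild type against 68.9, 12.4 and 1.24 CPM in mutants.

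In the mutant the module's genes were present at low to moderate levels. The mean mutant level was between 1 and 2 CPM for 60 members, between 2 and 5 CPM for 44, between 5 and 10 CPM for 22 and between 10 and 100 CPM for 13, and 2 members were above 100 CPM. The median over members was 0.142 CPM in wild type against 2.28 CPM in mutants. Summed over all members, the level was 44.7, 44.6 and 48.5 CPM in wild-type replicates 1 to 3 and 943, 968 and 992 CPM in mutant replicates 1 to 3. The members of highest CPM, alox5b.3 and si:dkeyp-46h3.5, held 34.4% of the mutant sum. Without them the sums were 41.3 to 44.3 CPM in wild type against 607 to 668 CPM in mutants.

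**Figure D1:**
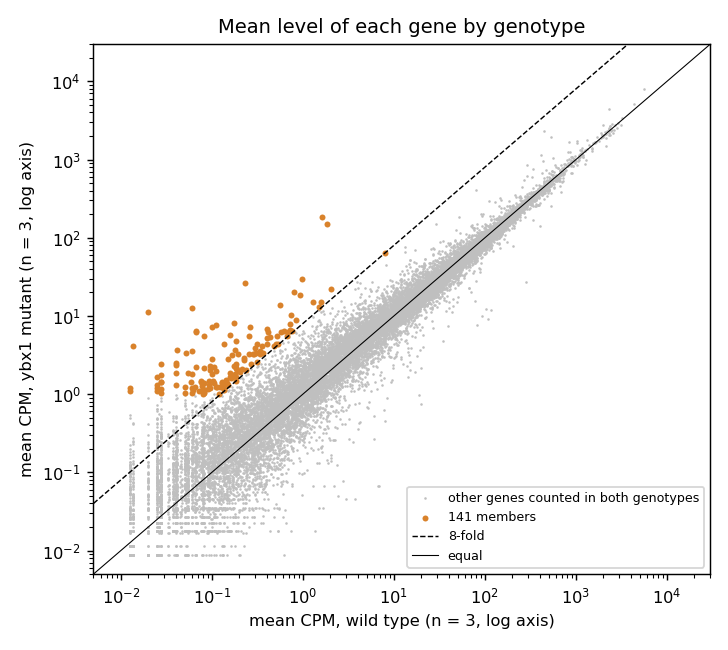
Mean CPM of each gene in wild type (horizontal, log axis) and in the ybx1 mutant (vertical, log axis), n = 3 libraries each, with the 141 members in orange and other genes with a count in both genotypes in grey. Most members lie at the low end of the wild-type axis, and alox5b.3 and si:dkeyp-46h3.5 lie above 100 CPM in the mutant.

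The ratio of the mean CPM values had a median of 14.4 over the members. It was at least 16 in 67 members, at least 32 in 35, at least 64 in 17 and at least 100 in 5. The limit cut through a continuous range: 188 genes that met the other conditions had ratios between 4 and 8. The nearest members inside were arl13a (8.02), LINGO2 (8.03) and si:busm1-105l16.2 (8.21). The nearest genes outside were NHSL3 (7.94), si:cabz01015814.1 (7.93) and a gene with a clone-based name (7.85).

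The wild-type side of these ratios rests on few counts. The wild-type total over 3 libraries was 10 counts or more in 72 members, 3 counts or fewer in 23 and a single count in 4. Of the 141 members, 60 had a count in every wild-type library, 39 in only 2 of them and 42 in only 1. Leaving out 1 library moved the ratio by more than 1.5 times, or left wild type with no count, in 83 members. In 42 members 1 left-out library took away every wild-type count, so that no ratio could be given. Of the 99 members with a ratio under each omission, 70 stayed at 8-fold or more in every one. Leaving out a mutant library moved the ratio by more than 1.5 times in 1 member, cfap99. Smaller moves also took members under 8-fold, such as arl13a (7.49) and PDC (7.37) without mutant replicate 3 and PRAF2 (7.44) without mutant replicate 2. All 141 members passed the count filter of the fit across all genes and all had an edgeR adjusted p-value under 0.05, the largest being 0.0209. Over all 17385 genes tested, 18.6% were called higher in the mutant, and 25.3% had every mutant library above every wild-type library. The rule used the same contrast, so nothing is read from this count.

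A symbol was available for 129 of the 141 identifiers. Of these, 36 were clone-based names such as si:dkeyp-46h3.5, so that 34.0% of members had no symbol or a clone-based name. Among the genes tested the share was 16.5%. Symbols in capitals are those of the human counterpart and do not say which zebrafish copy is meant, so the identifier is given where copies are compared. Of the 93 other members, 85 were grouped by what their products are known to do.

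**Figure D2:**
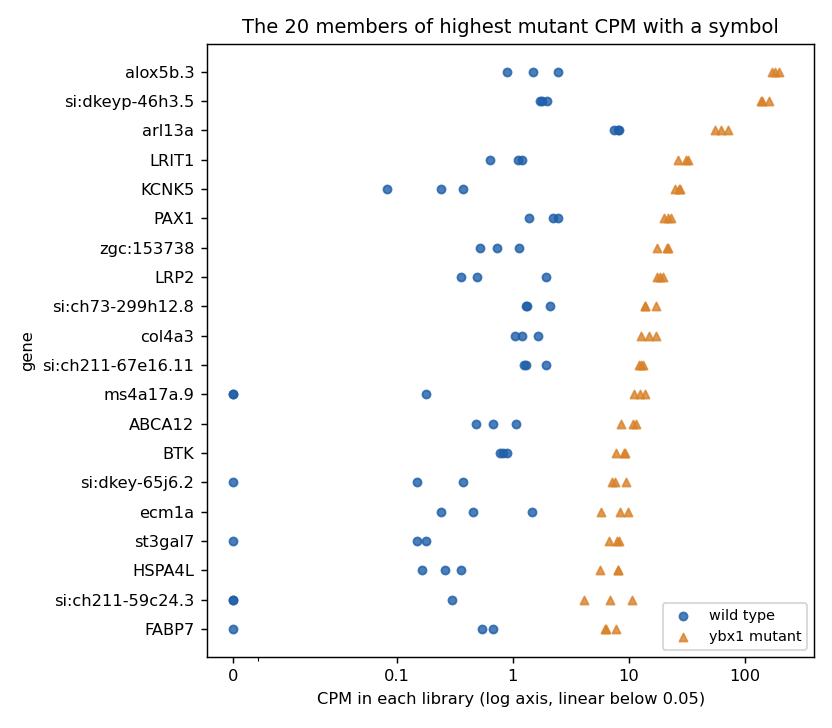
CPM in each of the 6 libraries (horizontal, log axis, linear below 0.05) for the 20 members of highest mean mutant CPM that have a symbol, with wild type as blue circles and ybx1 mutant as orange triangles. The symbols of the genotypes do not overlap for any gene, which the rule required; alox5b.3 runs from 172 to 198 CPM in the mutant and arl13a has the highest wild-type level.

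Enzymes and transporters made up 18 members. The highest CPM of the module belonged to alox5b.3 (ENSDARG00000069966), a copy of the lipoxygenase that starts leukotriene synthesis. It had 0.904, 1.51 and 2.47 CPM in wild type against 172, 198 and 184 CPM in mutants. The ratio of means was 114, and the mutant libraries lay close together with an SD of 13.0 CPM around 184.7 (n = 3). The other copy of the series, alox5b.2, was low in both, at a mean of 0.118 CPM in wild type against 0.502 CPM in mutants.

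Several members of this group act on lipids and steroids. ABCA12, a lipid transporter known from the skin barrier, had 0.678, 0.482 and 1.07 CPM in wild type against 8.54, 10.9 and 11.5 CPM in mutants. FABP7, a fatty acid-binding protein best known from the brain, had 0.678, 0.542 and 0 CPM in wild type against 7.83, 6.42 and 6.28 CPM in mutants. Its ratio of 16.8 became 25.2 without wild-type replicate 1 and 11.2 without wild-type replicate 3. SRD5A2, the reductase that turns testosterone into dihydrotestosterone, had 3 wild-type counts in all and 1.93, 1.89 and 1.75 CPM in the mutant. Its pooled ratio was 41.4, with a 95% counting interval of 13.9 to 203. CYP27A1, a mitochondrial sterol hydroxylase, had 0, 0.12 and 0.124 CPM in wild type against 2.37, 1.94 and 2.17 CPM in mutants. In wild type CYP27A1 had 5 counts in all, so its values and those of SRD5A2 are near the level of single counts.

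The pooled ratios given here compare summed counts scaled by summed library totals. Their exact intervals come from the binomial distribution and cover counting error only. Over the whole module, the interval reached below 8 in 70 of the 141 members. ENPEP, an aminopeptidase that cleaves angiotensin, had 0, 0 and 0.124 CPM in wild type against 3.39, 3.58 and 3.89 CPM in mutants, a pooled ratio of 82.1 (27.8 to 400.1). The sialyltransferase st3gal7 had 0.151, 0.181 and 0 CPM in wild type against 7.96, 8.21 and 6.73 CPM in mutants, a pooled ratio of 72.1 (34.8 to 180.1). Solute carriers were represented by 4 members. SLC2A1 carries glucose, slc7a2 cationic amino acids and SLC39A5 zinc, and their mutant means were 1.89, 1.23 and 1.01 CPM. Of the 4, only slc26a10, a member of the anion exchanger family, had a count in every wild-type library, at 0.264, 0.482 and 0.124 CPM against 3.49, 3.04 and 3.12 CPM in the mutant.

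Receptors, channels and signalling enzymes made up 13 members. KCNK5 (ENSDARG00000023587), a background potassium channel, had 0.377, 0.241 and 0.0824 CPM in wild type against 25.04, 27.6 and 27.1 CPM in mutants, a ratio of 114. LRP2, the endocytic receptor megalin, had 0.49, 0.361 and 1.94 CPM in wild type against 17.7, 18.8 and 19.7 CPM in mutants. Wild-type replicate 3 was the highest of its genotype, and the ratio of 20.2 became 44.0 without it and 15.4 without wild-type replicate 2. The genes musk, a receptor kinase of the neuromuscular junction, and gfral, the receptor of a stress-linked growth factor in mammals, had mutant means of 4.34 and 2.48 CPM. The ratio of musk was 32.1 and became 115 without wild-type replicate 3 and 21.4 without wild-type replicate 2. The melatonin receptor gene mtnr1ba had 2 wild-type counts in all and 2.85, 1.99 and 2.25 CPM in the mutant.

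GUCY1A1 and GUCY1B1 encode the paired subunits of soluble guanylate cyclase, the nitric oxide receptor, and both were members. GUCY1A1 had 0.0753, 0 and 0.0824 CPM in wild type against 3.52, 3.48 and 2.97 CPM in mutants. GUCY1B1 had 0.377, 0.241 and 0 CPM in wild type against 1.56, 2.54 and 1.67 CPM in mutants. The ratio of GUCY1A1 was 63.2. That of GUCY1B1 was 9.34, and it became 15.95 without wild-type replicate 1 and 6.22 without wild-type replicate 3. The partners also lie next to each other in the RefSeq gene order.

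Genes of the extracellular matrix, of adhesion and of secreted factors made up 17 members. LRIT1 (ENSDARG00000099406), a leucine-rich-repeat membrane protein known from photoreceptors, had 0.64, 1.205 and 1.11 CPM in wild type against 32.6, 31.0 and 26.7 CPM in mutants. The basement membrane collagen gene col4a3 had 1.05, 1.205 and 1.65 CPM in wild type against 12.8, 15.03 and 17.1 CPM in mutants, a ratio of 11.5. For ecm1a, a secreted matrix protein, the values were 0.452, 0.241 and 1.48 CPM against 9.79, 5.77 and 8.37 CPM. Its ratio of 11.002 became 23.03 without wild-type replicate 3 and 8.25 without wild-type replicate 2. The mesothelin gene mslna had counts in wild-type replicate 3 only, at 0.247 CPM, and 5.49, 4.18 and 6.83 CPM in the mutant. PCOLCE2 and pcolcea, which encode enhancers of procollagen processing, were both members, with mutant means of 1.78 and 1.06 CPM and wild-type counts only in replicate 3. GDF10, a ligand of the TGF-beta family, had 0.339, 0 and 0.247 CPM in wild type against 4.07, 2.59 and 2.99 CPM in mutants.

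**Figure D3:**
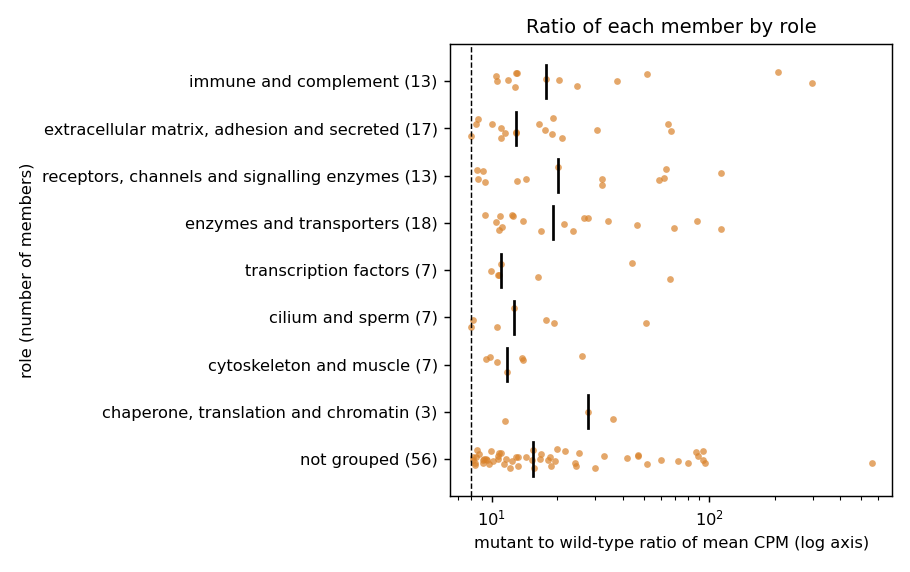
Mutant to wild-type ratio of mean CPM (horizontal, log axis) of each member, by role, with the number of members of each role in parentheses; black bars are medians and the dashed line is the 8-fold limit. The medians run from 11.1 for transcription factors to 27.7 for the 3 genes of the chaperone, translation and chromatin group, and each group of more than 3 genes spans a wide range.

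Immune and complement genes made up 13 members, and most of them were low. The highest was ms4a17a.9 (ENSDARG00000094854), of a family of membrane-spanning proteins, with 0, 0.181 and 0 CPM in wild type against 13.9, 12.5 and 11.2 CPM in mutants. Its pooled ratio was 279, with a counting interval of 95.2 to 1354 from 3 wild-type counts. BTK, a kinase of B cell receptor signalling, had 0.904, 0.783 and 0.824 CPM in wild type against 9.08, 7.87 and 9.32 CPM in mutants, a ratio of 10.5. The gene parp9, which is linked to interferon signalling in mammals, had 0.565, 0.241 and 0.412 CPM against 4.74, 5.23 and 5.67 CPM. The immune-type receptor gene dicp1.3-4 had 1 count in wild type and 3.83, 4.03 and 4.37 CPM in the mutant.

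The remaining immune members lay between 1.03 and 2.28 CPM in the mutant. They included the complement genes c3a.6 and c7a, the factor H-like gene cfhl3, the pentraxins crp7 and PTX3, the perforin copy prf1.2 and NCF4, a subunit of the phagocyte oxidase. The perforin copy had 0.949, 1.74 and 1.59 CPM in the mutant and 2 counts in wild type. Several of these belong to families of similar copies, among which reads may be split, so the level of a single copy is uncertain.

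Transcription factors made up 7 members. PAX1 (ENSDARG00000008203), known from the sclerotome and pharyngeal pouches, had 2.22, 1.39 and 2.47 CPM in wild type against 21.7, 20.4 and 23.4 CPM in mutants, a ratio of 10.8. The homeobox genes hoxa9a, HOXC12 and EN2 and the oligodendrocyte factor OLIG2 had mutant means of 2.05, 1.66, 1.69 and 1.11 CPM. HOXC12 and OLIG2 each had 2 wild-type counts, both in replicate 1. The nuclear receptor gene HNF4G had 2.10, 1.29 and 0.847 CPM in the mutant, an SD of 0.635 CPM around 1.41.

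Of 7 members known from cilia or sperm, arl13a, a small GTPase related to a ciliary protein, had the highest wild-type level of the module. It had 7.53, 8.19 and 8.11 CPM in wild type against 55.8, 63.1 and 72.2 CPM in mutants, from 533 wild-type counts. The sperm tail gene tsga10 had 0.716, 0.542 and 0.741 CPM against 5.52, 5.33 and 5.59 CPM. The cilium gene cfap99 varied most of all members, at 0.441, 1.49 and 3.05 CPM in the mutant. Its ratio of 10.6 became 6.17 without mutant replicate 3. The others were TEKT4, a tektin of flagella, TEX11, a meiotic recombination gene, cfap74 and cimip2b, with mutant means from 1.03 to 1.95 CPM.

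Among 7 cytoskeletal and muscle genes, FLNC, a muscle filamin, had 0.377, 0.843 and 0.618 CPM in wild type against 6.98, 6.47 and 6.04 CPM in mutants. The formin gene fhdc1 had 0.151, 0.241 and 0.165 CPM against 4.64, 4.48 and 5.35 CPM, a ratio of 26.0. The unconventional myosins MYO7A and MYO3A, known from sensory hair cells, had mutant means of 4.36 and 3.22 CPM. HSPA4L, a chaperone, had 0.264, 0.361 and 0.165 CPM in wild type against 5.62, 8.16 and 8.10 CPM in mutants. EEF1A1 (ENSDARG00000069951), a copy of the gene for the translation elongation factor, had 0.151, 0.241 and 0.0824 CPM against 5.15, 6.72 and 5.35 CPM.

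Members with a clone-based name or none included some of the highest values. The gene si:dkeyp-46h3.5 had 1.996, 1.81 and 1.73 CPM in wild type against 164, 141 and 139.8 CPM in mutants, a ratio of 80.4. ENSDARG00000096787 had the largest ratio of the module, but from 1 wild-type count against 11.8, 9.76 and 12.4 CPM in the mutant. That all of its mutant libraries lay above wild type was required by the rule. Its pooled ratio was 781, with a counting interval of 139.9 to 30882. The gene zgc:153738 had 0.527, 1.14 and 0.741 CPM against 17.7, 21.6 and 21.9 CPM, a ratio of 25.3. For si:dkey-65j6.2 the ratio of 46.9 became 108 without wild-type replicate 3 and 31.3 without wild-type replicate 2. ENSDARG00000111788 and si:ch211-223c9.2 each had 4 wild-type counts, and their pooled ratios were 108 (41.9 to 397) and 111 (43.1 to 409).

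For many members the files list another gene of the same symbol or of the same tandem series, which the rule did not choose. Of 26 other genes that carried a member's symbol, 17 were tested. Of these 17, 6 were called higher and 3 were called lower. Their log2 fold changes ran from -1.06 to 1.59 around a median of 0.07 (edgeR quasi-likelihood test, adjusted p under 0.05). The 6 are 35.3%, beside 18.6% of all genes tested, and the median over all genes tested was 0.01. No such copy came near the 8-fold limit. Of the 6, the other GDF10 (ENSDARG00000095378), MYO7A (ENSDARG00000099871), SLC2A1 (ENSDARG00000007412) and PCOLCE2 (ENSDARG00000055575) genes rose most. Their log2 fold changes were 1.59, 1.22, 1.08 and 0.81 (edgeR adjusted p = 7.17e-05, 3.06e-05, 0.000584 and 0.000584). The other PLCD1 gene (ENSDARG00000034080), also among the 6, lost its call without wild-type replicate 1 or mutant replicate 2 or 3, with edgeR adjusted p-values of 0.0624, 0.0712 and 0.0565.

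The other KCNK5 gene (ENSDARG00000012390) had 103, 98.7 and 99.0 CPM in wild type against 114, 114 and 116 CPM in mutants. Its log2 fold change was 0.20, standard error 0.05 (edgeR adjusted p = 0.01), so that the member of low wild-type level changed by far more on the log scale. The other PAX1 gene (ENSDARG00000073814) had 15.2, 11.6 and 12.5 CPM against 16.4, 15.5 and 16.1 CPM (edgeR adjusted p = 0.0596). The other FLNC gene (ENSDARG00000018566) went the opposite way to the member, from 3.50, 2.65 and 2.59 CPM to 1.56, 1.54 and 1.14 CPM (log2 fold change -1.06, standard error 0.24, edgeR adjusted p = 0.00668). NTM and LINGO2 also had another gene that was lower in the mutant. The differences between members and copies were not tested, since the members were chosen for theirs.

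**Figure D4:**
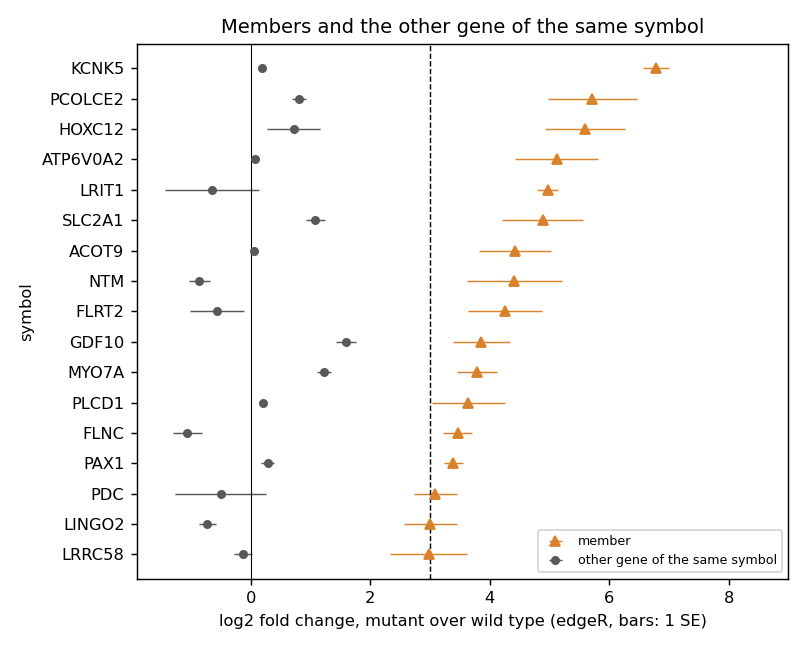
Log2 fold change of mutant over wild type (horizontal, edgeR estimate with bars of 1 standard error, n = 3 libraries per genotype) for 17 members (orange triangles) and the other tested gene of the same symbol (grey circles), with a solid line at no change and a dashed line at 8-fold. Standard errors are approximate, taken as the size of the log2 fold change divided by the square root of the test's F statistic. The other genes lie between -1.06 and 1.59.

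The ms4a17a series is made up of tandem copies. Besides ms4a17a.9 the files list 13 copies, of which 11 had a higher mean in the mutant and 2 had no count. Of the 9 copies without any wild-type count, 7 had counts in the mutant. All 4 copies that were tested were called higher (edgeR adjusted p-values from 0.000977 to 0.0404): ms4a17a.2, ms4a17a.5, ms4a17a.11 and ms4a17a.16. Over all genes tested the share called higher was 18.6%. The call of ms4a17a.16 was lost with DESeq2 (adjusted p = 0.0734), in edgeR with no filter beyond 1 count (adjusted p = 0.0676) or with the deposited factors as offsets (0.0549), and in edgeR without any 1 library other than wild-type replicate 1, and that of ms4a17a.11 without mutant replicate 3 (edgeR adjusted p = 0.0506). The copies ms4a17a.2 and ms4a17a.5 had no wild-type count, so no fold is given for them. The copy ms4a17a.16 had wild-type counts in replicate 1 only. These copies passed the count filter through the mutant libraries, where they are high, so nothing is read from the direction of their calls. The levels were low, with a highest mutant mean of 1.48 CPM for ms4a17a.11, and similar copies may share reads. Among tandem copies of c3a.6, c3a.1, c3a.2 and c3a.3 had edgeR adjusted p-values of 0.665, 0.134 and 0.382.

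Neighbouring members could be looked up by name only. A unique RefSeq gene was found for 88 of the 141 members (62.4%), of which 83 are protein-coding and 5 long non-coding. Fewer than 80% matched, so a comparison of chromosomes is void. Within 5 positions in the gene order, 5 pairs of members were found. Of these, 4 pairs are direct neighbours: GUCY1A1 with GUCY1B1, vwde with si:dkey-30e9.6, PLCXD3 with c7a, and si:dkey-58f10.7 with si:dkey-58f10.6. The pair ftr72 and PXYLP1 had 2 genes between them. Where neighbours overlap or are near-identical, their counts may not be independent.

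The coefficient of variation over the mutant libraries had a median of 15.3% and exceeded 30% in 14 members, from a lowest value of 1.71% (si:dkey-58f10.7) to a highest of 78.9% (cfap99). The members were divided into 4 groups by mutant CPM. In the lowest group (1.01 to 1.41 CPM) the median was 20.4%, against 22.6% for 778 other tested genes of that range. In the highest (5.36 to 184.7 CPM) it was 10.5%, against 5.98% for 10337 others, whose levels within that range are not matched. Mutant replicate 3 was the highest mutant library for 59 members, replicate 2 for 46 and replicate 1 for 36.

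The deposited normalized values hold a factor for each gene and library, a readout that the rule did not use. The factor was expressed on a log2 scale relative to the library's median and compared between genotypes with limma. With at least 10 counts in every library, 16 members entered the test, but 8 of them had only the factor common to their library and could not be called. Of the other 8, 0 were called and 0 had an unadjusted p under 0.05, beside 0.212% called among all genes tested. With at least 1 count in every library, 60 members entered, of which 28 had a factor of their own. Of these 28, 3 were called, beside 0.206% of all genes tested, which also include genes without a factor of their own. For EEF1A1 (ENSDARG00000069951) the factor was 0.28 in each wild-type library and -0.29, -0.29 and -0.28 in the mutant (limma adjusted p = 2.25e-05). ENSDARG00000117646 had a difference of -0.73 and zgc:113343 one of -0.35 (limma adjusted p = 0.000175 and 0.0275), with factors of 0.36 and 0.18 in each wild-type library. In all 3 called genes the wild-type factors had no spread, so their p-values do not measure variation among wild-type replicates. In wild type these 3 genes had from 10 to 26 counts in all. With the deposited normalized values in place of CPM, parp9 had a ratio of 7.09 and PDC one of 5.22, both under the limit, and PCOLCE2 had one of 8.45 in place of 64.7. The ratio moved by over 1.5 times in 11 members, upwards in 6 and downwards in 5. Among the former, ms4a17a.9 had 438 in place of 208, ENOSF1 55.7 in place of 23.8, ITGB4 19.9 in place of 10.1 and tsga10 19.3 in place of 8.22.

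Markers of the cell types that a follicle sample can hold were summed in each library. None of the 212 genes in the 15 lists, of which 8 are cell type lists, was a member. Members are 0.811% of all genes tested, so nothing is read from this. Granulosa markers summed to 139 to 164 CPM in wild type against 242 to 247 CPM in mutants, 1.61 times as much. CYP19A1, the gene of highest CPM in this list, rose from a mean of 31.3 to 68.1 CPM. Endothelial markers summed to 26.3 to 31.7 CPM against 47.0 to 58.0 CPM, a ratio of 1.86. Epithelial markers summed to 783 to 812 CPM against 1137 to 1155 CPM, a ratio of 1.42. Most of this sum was the gene epcam, at a mean of 584 CPM in wild type against 852 CPM in mutants. Of the 7 tested epithelial genes 4 were called higher. The others, krt4, krt5 and cldnb, had edgeR adjusted p-values of 0.186, 0.631 and 0.966. The sums of theca and stroma markers (503 to 533 CPM against 564 to 589 CPM) and leukocyte markers (25.4 to 31.1 CPM against 33.2 to 36.3 CPM) differed less. The highest theca and stroma genes were CYP11A1 (ENSDARG00000002347), which fell from a mean of 255.5 to 223.6 CPM, and CYP17A1, which rose from 144.4 to 166.1 CPM. The collagen genes col1a1a, COL1A1 and COL1A2 of this list rose by more. Their log2 fold changes were 1.09, 1.31 and 1.32 (edgeR adjusted p = 2.86e-06, 2.56e-06 and 4.90e-06). Of the tested theca and stroma genes without a call, NR2F2 and PDGFRA had lower mutant means and the others higher ones. For NR2F2, PDGFRA and PDGFRB the edgeR adjusted p-values were 0.0835, 0.199 and 0.76. The sum of oocyte markers was lower in the mutant, at 7107 to 7401 CPM against 7529 to 8062 CPM. The genes of highest CPM in this list, zp2.2 and zp3b, went from means of 3110 and 1506 CPM to 2758 and 1370 CPM. Neither was called (edgeR adjusted p = 0.0796 and 0.197). The means of zar1, buc and SYCP3 were higher in the mutant and those of the other oocyte genes lower. The part of these shifts in the module was not tested. Sums are set by the genes of highest CPM, and single markers moved by more. The T cell gene cd4-1 had a log2 fold change of 2.42 (edgeR adjusted p = 0.0162, or 0.0521 without mutant replicate 3). Of the tested leukocyte genes without a call, marco, csf1ra, SPI1 and lck had lower mutant means and cd74b a higher one.

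**Figure D5:**
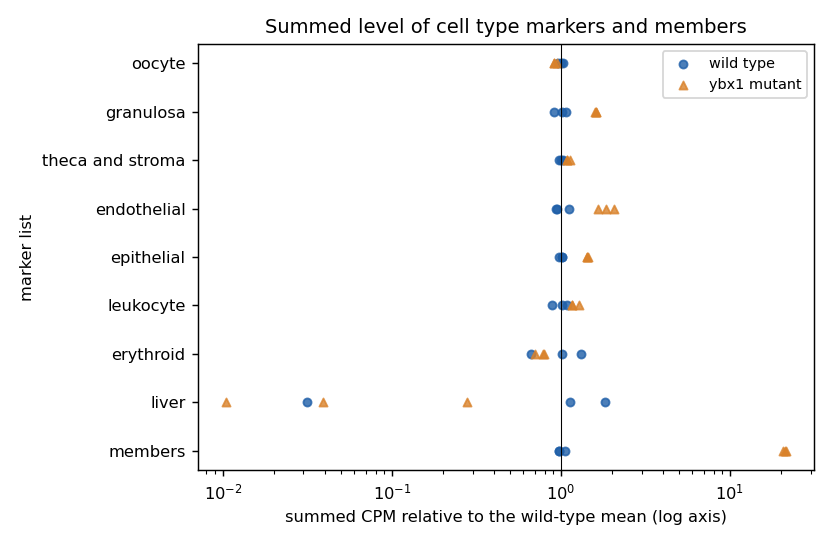
Summed CPM of each cell type marker list and of the 141 members in every library, relative to the mean of the 3 wild-type libraries (horizontal, log axis), with wild type as blue circles and ybx1 mutant as orange triangles. Granulosa, endothelial and epithelial sums lie above wild type at ratios of 1.42 to 1.86, liver and erythroid sums overlap, and the members, chosen for this difference, lie at 21.1.

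Among single markers, 12 of 20 tested granulosa genes were higher in the mutant and 0 lower, beside 18.6% higher and 15.3% lower among all genes tested (edgeR adjusted p under 0.05). At an unadjusted p under 0.05 it was 15 higher and 0 lower, and DESeq2 called 11 higher and 0 lower. NR5A2, a nuclear receptor of steroidogenic cells, rose most, from 1.43, 1.63 and 0.865 CPM to 5.35, 4.88 and 6.51 CPM (log2 fold change 2.13, standard error 0.23, edgeR adjusted p = 8.74e-05). Of the tested granulosa genes without a call, amh and FST (ENSDARG00000052846) had lower mutant means and the others higher ones. Their edgeR adjusted p-values were 0.135 for amh, 0.717 for FST and 0.774 for FSHR. In the theca and stroma list 8 of 15 rose and 1, CYP11A1 (ENSDARG00000002347), fell, a call lost without wild-type replicate 1 or mutant replicate 2 (edgeR adjusted p = 0.0525 and 0.0567). In the endothelial list 5 of 7 rose, and in the epithelial list 4 of 7. Of the endothelial genes, 3 were called by DESeq2, 3 by edgeR without wild-type replicate 3 and 2 without mutant replicate 3. In the leukocyte list 5 of 11 rose and 1, cd74a, fell. Of the 5, cd4-1 and ZAP70 passed the count filter through the mutant libraries, so nothing is read from the direction of their calls. Without mutant replicate 3 the leukocyte list had 3 genes higher, and cd74a lost its call with DESeq2 (adjusted p = 0.0962) and without wild-type replicate 1 or 3 or mutant replicate 1 or 3 (edgeR adjusted p from 0.0591 to 0.0766). The pan-leukocyte gene ptprc rose from 0.678, 1.14 and 0.865 CPM to 2.47, 2.84 and 3.31 CPM, while cd8a was at 0 in every library. In the oocyte list 0 of 14 rose, also at an unadjusted p under 0.05 and with DESeq2, and 2 fell, pou5f3 and DAZL. The share that fell is near the 15.3% of all genes tested that were called lower.

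The liver list, which holds the vitellogenins, had 0 calls among 11 genes in edgeR and in DESeq2, although 7 genes were lower at an unadjusted edgeR p under 0.05. It had 7 lower calls in edgeR with the replicate number as a block, 7 with no filter beyond 1 count, 7 without wild-type replicate 3 and 8 without mutant replicate 1. The erythroid list had 0 calls among 4 genes, and 0 at an unadjusted p under 0.05. It had 2 lower calls without wild-type replicate 1, and DESeq2 gave 1 on its own filter. In both lists the libraries of the genotypes overlapped.

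Lists of pathways gave the following counts over the same fit, in which 18.6% of all genes tested were called higher and 15.3% lower. Of 12 tested genes of matrix turnover, 9 rose and 1 fell, with a median log2 fold change of 0.80; MMP9, a matrix protease, fell from 38.3, 39.9 and 35.95 CPM to 18.7, 17.1 and 18.3 CPM. Of 11 interferon response genes 7 rose and 0 fell, with a median of 0.79, and 4 were called with the deposited factors as offsets, without wild-type replicate 1 or 2, or without mutant replicate 3. With a filter of 1 CPM in 3 libraries, 5 were called. Of the 7, isg15, IFIH1 and DHX58 passed the count filter through the mutant libraries, where they are high. Nothing is read from the direction of their calls. Of the genes not tested, usp18 and CGAS had lower mutant means and mxb, RSAD2 and STING1 higher ones. The ubiquitin-like gene isg15 had 0.716, 0.241 and 0.618 CPM in wild type against 3.42, 2.34 and 2.36 CPM in mutants (log2 fold change 2.29, standard error 0.35, edgeR adjusted p = 0.000716). Among the same 11 interferon response genes DESeq2 called 6 higher and 0 lower, and on its own filter it called 7 higher. In the TGF-beta and activin list 10 of 21 rose and 0 fell, with a median of 0.18, and 3 were lower at an unadjusted p under 0.05. This list shares inha, INHBA, INHBB, FST and amh with the granulosa list and GDF9 and bmp15 with the oocyte list. The calls of inha, INHBA and INHBB are therefore counted in both lists. DESeq2 called 9 higher and 0 lower there, and 1 gene was lower without mutant replicate 1 or 3.

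The growth arrest list had 4 of 19 genes higher and 3 lower, and the cell cycle list 5 of 22 higher and 3 lower, their medians being 0.03 and 0.05. Both counts are near the shares over all genes tested, 18.6% higher and 15.3% lower, and nothing is read from them. Without mutant replicate 2 the cell cycle list had 3 higher and 1 lower, and without wild-type replicate 1 or 3 it had 0 and 1 lower. The stress response list had 3 of 17 lower and 8 higher, or 5 higher without mutant replicate 2. The heat shock gene hsp70l rose, from 3.54, 2.53 and 2.68 CPM in wild type to 10.3, 13.1 and 11.5 CPM in mutants. In the list for translation control of stored messenger RNA, 0 of 10 rose and 3 fell, namely EIF4E1B, eif4enif1 and ybx1, or 1 without wild-type replicate 3 or mutant replicate 3. DESeq2 also called 0 higher and 3 lower, and 0 were higher at an unadjusted p under 0.05. These lists hold no member, and they are given to show how genes outside the module moved.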

How the data were processed

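RNA was extracted with TRIzol and made into directional libraries, per the labels' protocols. The submitters' processing notes name the build GRCz11 and the tools bcl2fastq, FastQC 0.11.5, HISAT2, StringTie and DESeq2, without their roles. The authors deposited raw counts as whole numbers per gene, which may be rounded estimates. They also deposited normalized values, a signal equal to the count divided by a factor that differs by gene as well as by library. Symbols were paired with 28988 of 32057 identifiers. Neighbours were taken from the gene order of RefSeq on assembly GRCz12tu, matched by name; no coordinates were used.

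CPM were computed from column sums. The fit across all genes used edgeR 4.0.16 (R 4.3.3, TMM factors, filterByExpr with a minimum count of 10 and a total of 15, Benjamini-Hochberg adjustment, genotype as the only term). Standard errors given with edgeR values are approximate. They were computed as the size of the log2 fold change divided by the square root of the test's F statistic. The deposited factors were tested with limma 3.58.1, and DESeq2 1.42.0 was an alternative. On simulated data the edgeR fit recovered 162 of 200 genes changed 2-fold among 17385, with 7 false calls. The simulated counts were drawn independently, with a spread set by expression level only and far fewer changed genes than were called here. These figures therefore do not carry over to the calls in the data. Libraries of 1 genotype differed by more than sampling noise (chi-square per degree of freedom 5.31 to 24.1). The members, the roles and the gene lists were chosen with earlier results of these data known. List symbols were matched without regard to case, or without a final paralog letter, in which case every gene of that symbol entered. Named members are those of highest CPM or ratio, those nearest the limit, those called in the factor test, neighbours and, chosen after their values were seen, further examples of each role.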

Additional observations from a re-analysis of the deposited data

How the results depend on the processing

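The module held 141 genes with TMM-scaled CPM, all of them shared, 148 with the deposited normalized values (137 shared) and 191 with a minimum of 0.5 CPM. Its size followed the limits chosen: it was 81 at a minimum of 2 CPM, 329 at 4-fold, 67 at 16-fold and 72 with at least 10 wild-type counts. Without 1 library it was 128 to 145, of which 114 to 134 were shared. Of 1667 member fold changes recomputed under alternatives, 84 moved beyond the spread between replicates. Their direction is fixed by the rule and is no sign of stability. The count of genes called, 5890, was 5335 to 6110 in the alternatives on 6 libraries with adjusted p under 0.05 and 4489 to 5326 without 1 library. The 10 other copies called higher were 7 to 12. The 10 are 6 copies of a member's symbol and the 4 tested ms4a17a copies, from whose direction nothing is read.

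Calls on the deposited factors were less stable. Against 32 genes, the replicate block left 1, leaving out 1 library gave 20 to 49, and restricting the test to genes with a factor of their own, chosen after seeing the data, gave 51, or 55 with a minimum count of 1. The cause was not tested. For the replicate block, same-numbered libraries correlated in their deviations at 0.155, 0.024 and 0.158, and 5 of 6 libraries correlated best with their own number. No label pairs them, and the fit with the block gave 6110 calls. On the wild-type side, 4 members rest on a single count and 23 on 3 counts or fewer. No chromosome comparison was run, and the 100 kb neighbourhood was replaced by gene order because no annotation of the files' build was used.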
